A study of Homo sapiens and Mus musculus with 76 samples.

Results

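Transcript levels of 10 genes of MYC-linked growth, MYC, MYCN, MAX, ODC1, CAD, NCL, NPM1, FBL, NOP56 and DKC1, were described in every human library of a comparison of full-length cDNA protocols. The genes were taken by symbol, 10 of the 23571 symbols in the human tables, and all 10 were present there. The series holds 76 libraries of polyadenylated RNA, of which 63 were human and are used here. Smart-Seq2 libraries were made from single cells of the Burkitt lymphoma line DG-75 (7 cells) and of HEK293T, an embryonic kidney line transformed by adenoviral genes that also carries the SV40 large T antigen (7 cells). Single HEK293T cells were also prepared with Smart-Seq2 variant 1 (8 cells), variant 2 (8 cells), variant 3 (6 cells) and variant 4 (6 cells) and with standard SMART-Seq (4 cells). HEK293T RNA diluted to 1 ng (3 libraries), 100 pg (3) or 10 pg (2), and lysed pools of 100, 50 and 10 HEK293T cells (3 libraries each), were prepared with Smart-Seq2. No group carried a treatment in the labels, both are established cell lines rather than tissues, and how the variants differ is not given in the sources used here.

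MYC is a transcription factor that binds DNA as a dimer with MAX at the sequence CACGTG, called the E-box, and MYCN is a close relative with the same partner. Known targets include ODC1, the rate-limiting enzyme of polyamine synthesis, CAD, the enzyme that starts pyrimidine synthesis, and many genes of the nucleolus, where ribosomal RNA is made. NCL (nucleolin) and NPM1 (nucleophosmin) are abundant nucleolar proteins that bind ribosomal RNA and its precursors. FBL and NOP56 belong to box C/D ribonucleoproteins, which methylate ribosomal RNA, and DKC1 is the pseudouridine synthase of box H/ACA ribonucleoproteins. In Burkitt lymphoma MYC is known for translocations that place it beside an immunoglobulin gene.

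E-boxes near the start sites are shown because CACGTG is the sequence that a MYC and MAX dimer reads. RefSeq promoter windows of build GRCh38.p14, from 250 bases before to 50 bases after the start site, were found for 9 of the members (12 windows), and CACGTG lay in windows of 2 of them, ODC1 and FBL. The motif reads the same on both strands. It lay 29 bases before an ODC1 start site (chr2:10448024-10448053, minus strand), 5 bases after the same site (chr2:10447990-10448019) and 6 bases after the FBL start site (chr19:39846356-39846385, minus strand). Each line gives 30 bases in the direction of transcription with the E-box in capitals.
ODC1, before the start site: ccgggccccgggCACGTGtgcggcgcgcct
ODC1, after the start site: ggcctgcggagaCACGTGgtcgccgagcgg
FBL, after the start site: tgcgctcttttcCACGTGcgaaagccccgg
The share of the members' windows with the motif was 16.7% (2 of 12), beside 7.26% of all 35116 windows. By gene, 2 of 9 members had it in any window, beside 10.2% of 9829 genes with a mean of at least 1 CPM (1 window a gene). MYC itself was the member without a window. A match is a description of the letters and not evidence of binding, and the expression data hold no measure of binding.

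Levels are given as CPM, reads of a gene per 1000000 gene reads of a library. Gene reads numbered 1.88 to 27.9 M per human library (1 M being 1000000 reads), with 2.24 to 7.88 M in DG-75 cells and 5.29 to 16.6 M in HEK293T cells prepared with Smart-Seq2. The labelled lines matched their markers: 7 of 7 B cell genes had at least 1 CPM in DG-75, with a summed level of 604 to 7420.0 CPM per cell, while in HEK293T cells the sum was 0 to 7.71 CPM and CD22, CD79B, MS4A1 and CD74 were at 0 reads. The summed level of 8 HEK293T genes was 618 to 1480.0 CPM in HEK293T cells and 4.6 to 147 CPM in DG-75, where PAX2, LHX1 and KRT18 were at 0. All 4 T cell markers were at 0 in both lines. Myeloid markers summed to 0 to 256 CPM in DG-75, mostly LYZ at 63.6 CPM over the group with CD163 at 0, and to at most 0.302 CPM in HEK293T cells with LYZ and CD163 at 0. Fibroblast markers summed to 1.01 to 55.1 CPM in DG-75, with LUM at 0, and to 5.89 to 184 CPM in HEK293T cells, with DCN at 0. The part of these other markers in the results was not tested.

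In each of these lines 1 cell stood apart in the summed level of the 10 genes. HEK293T cell 2 held 716.7 CPM of them, where the other cells held 4031 to 5412 CPM. It had 5.29 M reads, 10260 genes with a read and 31.9% of its reads in its top 100 genes. DG-75 cell 7 held 290.2 CPM, where the other cells held 1097 to 2633 CPM, with 5.91 M reads. The comparison of the lines, the gene lists, the spread between cells and the correlations are given with and without them, as are the counts of members between protocols.

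Single DG-75 cells were first compared with single HEK293T cells of the same protocol. MYC, ODC1, NCL, NPM1, FBL, DKC1 and NOP56 were lower in DG-75 by more than 2-fold, MAX was higher, CAD differed by less than 2-fold, and MYCN had no read in either line. Of the 9 genes compared 7 were thus past 2-fold lower, against a background of 26.2% of 8751 genes, and 1 past 2-fold higher, against 24.9%. Their median log2 ratio was -1.27, beside -0.004 for all genes compared. For all 9 the ranges over cells overlapped between the lines, where 5.76% of genes were lower and 3.12% higher without overlap. No culture is named for the single cells, so each line counts as 1 sample, there is no test, and ratios of summed reads carry 1 CPM added to both groups. Exact 95% Poisson intervals, given in brackets, cover counting error only, which is far smaller than the spread between cells.

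MYC reached 1.89, 85.6 and 893 CPM in DG-75 cells (lowest, median and highest) and 12.9, 435.0 and 1085 CPM in HEK293T cells. Both lines held cells of low and of high MYC, and the ranges overlapped. Over the summed reads MYC was at 150.9 CPM (147.0 to 154.9) in DG-75 and 539.1 CPM (534.0 to 544.3) in HEK293T, a log2 ratio of -1.83. Without DG-75 cell 3, the highest of that line, the log2 ratio was -2.38.

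MAX, the partner that MYC needs to bind DNA, was at 101.5, 152.5 and 286.4 CPM in DG-75 and 0.189, 65.2 and 179.3 CPM in HEK293T cells. All DG-75 cells lay above the HEK293T median, with overlapping ranges. The sums were 168.8 CPM (164.6 to 173.1) and 74.2 CPM (72.3 to 76.2), a log2 ratio of 1.17. MYCN was at 0 reads in all 14 of these cells, which allows up to 0.101 CPM in DG-75 and 0.0472 CPM in HEK293T by the upper Poisson bound.

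Both enzymes were at lower summed levels in DG-75, ODC1 by a wider margin than CAD. ODC1 was at 0.677, 107.6 and 161.4 CPM in DG-75 and 27.1, 395.8 and 692 CPM in HEK293T cells. Its sums of 93.8 CPM (90.7 to 97.0) and 422.9 CPM (418.4 to 427.5) gave a log2 ratio of -2.16, the lowest of the 9. CAD was at 25.4, 54.0 and 196.8 CPM in DG-75 and 69.2, 98.2 and 205.1 CPM in HEK293T cells. The log2 ratio of its sums, 79.0 CPM (76.1 to 81.9) over 121.2 CPM (118.7 to 123.6), was -0.61, within 2-fold.

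The nucleolar proteins NCL and NPM1 were both past 2-fold lower in DG-75. NCL was at 91.2, 631.5 and 830.3 CPM in DG-75 and 417.9, 1783 and 2417 CPM in HEK293T cells. Apart from HEK293T cell 2, every HEK293T cell lay above every DG-75 cell, and the log2 ratio of the sums, 558.3 CPM (550.7 to 566.0) over 1837 CPM (1828 to 1847), was -1.72. NPM1 was at 1.35, 134.9 and 272.5 CPM in DG-75 and 95.4, 430.5 and 520.8 CPM in HEK293T cells, and its sums of 134.2 CPM (130.4 to 138.0) and 421.0 CPM (416.5 to 425.6) gave -1.64. NPM1 has near-identical processed copies in the genome, and its deposited RPKM imply a counted length of 528 bases where its median annotated transcript has 1598. The assignment of its reads is therefore uncertain.

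Among the ribonucleoprotein subunits, FBL, the methyltransferase, was at 11.8, 115.4 and 234.9 CPM in DG-75 and 76.8, 243.8 and 416.7 CPM in HEK293T cells, with a log2 ratio of the sums of -1.27. NOP56, a scaffold of the same particle, was at 0.846, 187.5 and 265.8 CPM in DG-75 and 0.189, 276.9 and 400.1 CPM in HEK293T cells (log2 ratio -1.12). DKC1 was at 13.8, 187.4 and 226.1 CPM in DG-75 and 0.378, 355.6 and 427.3 CPM in HEK293T cells (-1.08). Without HEK293T cell 2 and DG-75 cell 7 the count past 2-fold was 6 (1 higher and 5 lower). The background was then 24.2% higher and 26.7% lower of 8675 genes. NOP56 (-0.97) and DKC1 (-0.997) fell within 2-fold without these cells. MYC (-1.695), ODC1 (-2.01), NCL (-1.58), NPM1 (-1.47), FBL (-1.12) and MAX (1.18) stayed past it.

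**Figure D1:**
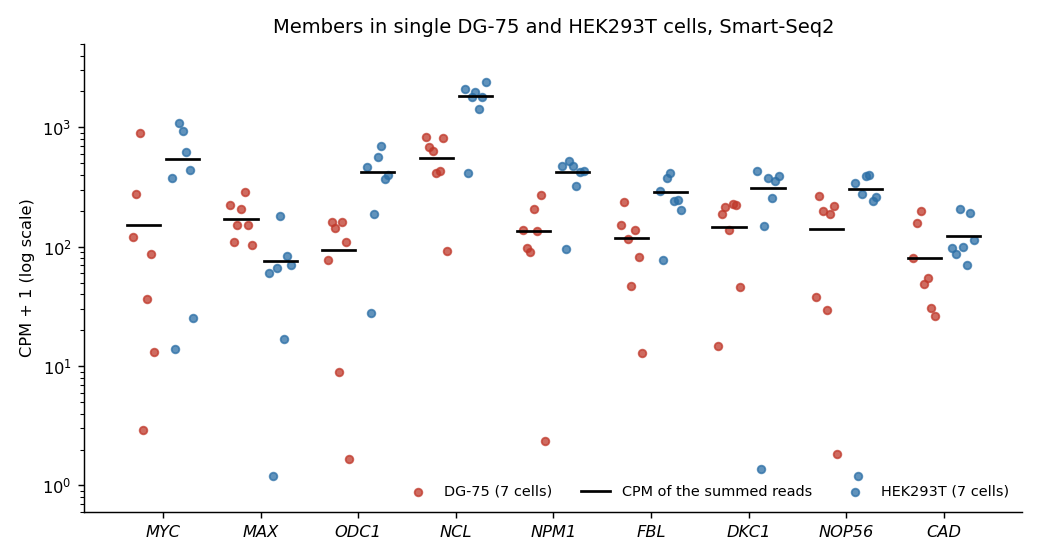
CPM + 1 on a log axis of the 10 genes except MYCN in each single cell of DG-75 (7 cells) and HEK293T (7 cells) prepared with Smart-Seq2. Black bars give the CPM of the summed reads. MAX sits higher in DG-75 (168.8 against 74.2 CPM), NCL sits lower (558.3 against 1837 CPM), and 1 HEK293T cell lies far below the others for DKC1 and NOP56.

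Levels were compared between genes only per length, by the median deposited RPKM over cells. In HEK293T cells the order was NPM1 (762.4 RPKM), NCL (677.4), FBL (209.0), ODC1 (191.9), MYC (182.1), NOP56 (144.1), DKC1 (140.2), MAX (35.9) and CAD (13.8). In DG-75 it was NPM1 (269.9 RPKM), NCL (244.3), MAX (112.8), NOP56 (102.5), FBL (100.6), DKC1 (74.9), ODC1 (53.0), MYC (36.4) and CAD (7.76). MAX thus stood next after NPM1 and NCL in DG-75 and above MYC, while in HEK293T cells it stood below MYC. This order depends on the gene length. With the median annotated transcript length in place of the length that the RPKM imply, an alternative chosen after seeing the data, MAX (170.0 CPM per kb) and NCL (156.5) led in DG-75, before FBL (99.5), NPM1 (84.4) and NOP56 (78.1), and in HEK293T cells NCL (442.0) and NPM1 (269.4) led and MAX (72.6) stood below MYC (183.9). For MAX the implied length was 1767 bases and the annotated one 897.

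Other genes of the same processes were read in 6 lists. Of 12 genes for partners and assembly factors of the small nucleolar ribonucleoproteins, 8 were past 2-fold lower in DG-75, 0 higher and 4 within 2-fold, with a median log2 ratio of -1.68. RRP9, the protein of the U3 particle, was at 2.26 CPM against 49.1 CPM (-3.94), and NHP2, a core subunit beside DKC1, at 62.3 CPM against 288.0 CPM (-2.19). NHP2L1, RUVBL1, NOP10 and NUFIP1 stayed within 2-fold. Of 25 nucleolar ribosome assembly genes compared, 17 were lower, 0 higher and 8 within 2-fold (median -1.20). UTP20, a factor of small subunit assembly, had the lowest ratio at 0.382 CPM against 68.7 CPM (-5.66), followed by BOP1, a factor of large subunit maturation, at 2.73 CPM against 25.8 CPM (-2.85).

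RNA polymerase I genes were spread about 0. Of 11, 4 were lower, among them the selectivity factor subunit TAF1B (-2.02) and the polymerase subunit POLR1B (-1.61), 1 was higher, TAF1D (1.52), and 6 were within 2-fold (median -0.13). In the polyamine list 2 of 7 genes compared were lower, spermidine synthase SRM (-3.70) and AMD1, the decarboxylase that supplies its aminopropyl groups (-1.08), 0 were higher and 5 were within 2-fold, with a median of 0.49. Of 14 nucleotide synthesis genes 7 were lower, including DHODH (-2.46) and CTPS1 (79.6 CPM against 321.2 CPM), both of pyrimidine synthesis, 1 was higher, thymidylate synthase TYMS (1.32), and 6 were within 2-fold (median -0.93). Of 6 compared genes of the wider MYC and MAX network 2 were higher, MXD3 (2.57) and MXI1 (1.21), both alternative partners of MAX, 0 were lower and 4 were within 2-fold (median -0.19). These counts stand beside the same backgrounds, 26.2% lower and 24.9% higher over all genes compared. Genes entered with at least 20 CPM in either line. MXD3 (51.9 CPM against 7.88 CPM) and MXI1 (38.4 CPM against 16.05 CPM) entered only through DG-75, where they are high. RRP9, UTP20, BOP1, TAF1B, SRM and DHODH entered only through HEK293T. For such genes the filter favours the direction seen, so their ratios are a description only. Without HEK293T cell 2 and DG-75 cell 7 the backgrounds were 26.7% lower and 24.2% higher of 8675 genes. The polyamine list then had 1 lower and 1 higher of 7, and nucleolar assembly 16 lower of 25. RNA polymerase I genes had 4 lower and 2 higher, with a median of 0.02. The medians of the small nucleolar ribonucleoprotein, nucleolar assembly and nucleotide synthesis lists were -1.66, -1.10 and -1.05.

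**Figure D2:**
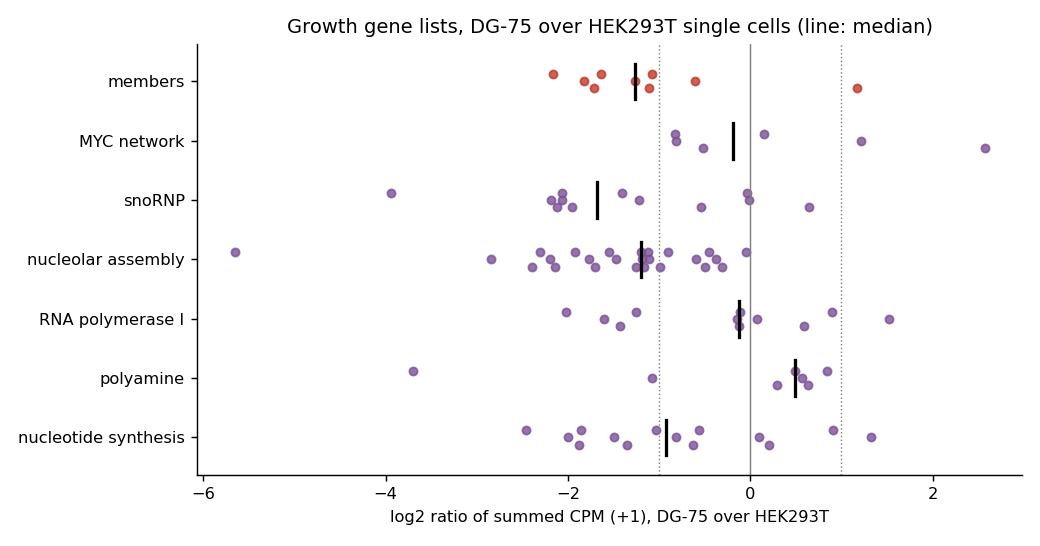
Log2 ratio of summed CPM (1 CPM added) of DG-75 over HEK293T single cells for each gene of the members and of 6 growth gene lists, with a line at each median and dotted lines at 2-fold. Small nucleolar ribonucleoprotein and nucleolar assembly genes lie mostly below 0 (medians -1.68 and -1.20), while RNA polymerase I and MYC network genes lie about 0 (medians -0.13 and -0.19).

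Between single cells prepared with variant 1 or Smart-Seq2 MYC was among the more variable genes. With variant 1, MYC was at 0, 146.9 and 806 CPM (lowest, median and highest of 8 cells), and 2 of those cells had at most 2 MYC reads at 7.37 and 14.4 M gene reads. The SD of log2(CPM + 1) over these cells was 3.93 for MYC, beside a median of 0.804 over 7262 genes, while MAX (0.377), NCL (0.393), NPM1 (0.289), FBL (0.315), DKC1 (0.304), NOP56 (0.383) and ODC1 (0.726) were each below that median and CAD (0.974) above it. With Smart-Seq2 the SD of MYC was 2.55, larger than that of 94.5% of 7279 genes. NOP56 (3.05), DKC1 (3.0), MAX (2.4) and ODC1 (1.58) were also above the median of 1.04. Without HEK293T cell 2 the SD was 1.99 for MYC, larger than that of 90.6% of 7264 genes, beside a median of 0.722. It was then 1.10 for MAX, 0.648 for ODC1, 0.575 for DKC1 and 0.311 for NOP56. In DG-75 the SD of MYC was 2.76, larger than that of 78.0% of 7203 genes, beside a median of 2.19. Without cell 7 it was 2.83, larger than that of 84.4% of 7084 genes, beside a median of 1.79. With variants 2, 3 and 4 the SD of MYC was 1.58, 2.66 and 1.64, larger than that of 70.3%, 77.8% and 77.4% of genes. With standard SMART-Seq the SD of MYC was 0.587, larger than that of 19.4% of 5999 genes over 4 cells. Over all 39 single HEK293T cells MYC ranged from 0 to 1085 CPM with a median of 82.5 CPM, and 3 cells were under 1 CPM. Cells of different protocols enter that range.

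Most members had reads in nearly every cell. After each library was thinned to 2000000 gene reads, MYC had a read in 43 of 46 human single cells (45 as deposited) and at least 10 reads in 41. ODC1, NCL, NPM1, FBL and DKC1 had a read in all 46 thinned cells, and MAX, NOP56 and CAD in 45. MYCN had a read in 2 of 46 cells as deposited and in 0 after thinning. Over all 63 human libraries it had reads in 5, at most 3 reads (0.731 CPM, in a library of 100 pg of RNA).

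Within groups of 6 to 8 cells, MYC and its target ODC1 had Pearson correlations of log2(CPM + 1) of 0.732 in DG-75, 0.635 in HEK293T with Smart-Seq2, 0.553 with variant 3, 0.17 with variant 1, 0.15 with variant 2 and -0.718 with variant 4. Without HEK293T cell 2 the Smart-Seq2 value was -0.0613, so it rests on that cell, and without cell 7 the DG-75 value was 0.823. By ranks (Spearman) the DG-75 correlation went the other way, from 0.536 with all cells to 0.314 without cell 7. Cells of a group share a protocol, and depth range, so these values describe the cells only. Their sign was not the same in all groups.

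Protocols were compared on single HEK293T cells with Smart-Seq2 as the common reference. All 5 of these ratios and the DG-75 ratio share the 7 Smart-Seq2 cells, and each protocol counts as 1 sample. Standard SMART-Seq and variant 3 gave lower MYC, ODC1, NCL and FBL and higher NPM1 than Smart-Seq2, while variants 1 and 4 gave no member past 2-fold.

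With variant 3, 6 of 9 members were past 2-fold lower, against 39.7% of 7980 genes, and 1 was higher, against 21.6%. MYC was at 0.251, 18.2 and 281.3 CPM (lowest, median and highest), a log2 ratio of the sums of -3.59. CAD was at 0, 12.4 and 27.4 CPM (-3.32), and all 6 cells lay below all Smart-Seq2 cells. The others past 2-fold were NCL (-2.10), ODC1 (-2.03), FBL (-2.005), MAX (-1.58) and, as higher, NPM1 (1.18). NPM1 was at 529.7, 917.6 and 1140.0 CPM with variant 3, above all 7 Smart-Seq2 cells. Ranges that did not overlap were thus found for CAD as lower and NPM1 as higher, where 13.2% and 2.19% of genes had such ranges. Variant 3 cells had 7443 to 10259 genes with a read, where Smart-Seq2 cells had 10260 to 12604, and the part of this in the result was not tested.

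With standard SMART-Seq 4 of 9 members were lower, against 35.4% of 8104 genes, and 1 was higher, against 19.5%. MYC was at 92.1, 82.5, 140.4 and 51.5 CPM in the 4 cells, a log2 ratio of the sums of -2.54. ODC1 (-1.80), NCL (-1.45) and FBL (-1.31) were the others past 2-fold lower. NPM1 was at 1354, 1505, 809.5 and 731.2 CPM, a log2 ratio of 1.33, and all 4 cells lay above all Smart-Seq2 cells (6.03% of genes had such ranges, and 9.39% lower ones). The median of all genes compared was -0.33 with SMART-Seq and -0.34 with variant 3; with TMM factors on the sums it became 0.01 and 0.23, and the counts of members became 4 and 7.

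With variant 2 MYC was at 11.3, 34.8 and 277.3 CPM (log2 ratio -2.97) and ODC1 at 64.3, 169.6 and 276.8 CPM (-1.28). These were the 2 members past 2-fold lower, against 7.38% of 7881 genes, with 0 higher against 4.66%, and their cell ranges overlapped those of Smart-Seq2. With variant 1 the ratio was -0.85 for MYC and -0.91 for ODC1, and with variant 4 it was -0.56 for MYC. The backgrounds there were 5.25% lower and 3.37% higher of 7844 genes for variant 1, and 6.91% lower and 6.15% higher of 8030 genes for variant 4. No member had ranges apart from those of Smart-Seq2 with variant 1, 2 or 4, where such ranges were lower in 0.153%, 0.127% and 0.361% of genes and higher in 0.0382%, 0.0254% and 0.859%. Leaving out variant 1 cell 2, 4 or 8 or Smart-Seq2 cell 2, 3 or 7 gave 1 or 2 members past 2-fold with variant 1. Leaving out variant 4 cell 4 gave 1 with variant 4. Without Smart-Seq2 cell 2 the members past 2-fold numbered 7 with variant 3, 5 with SMART-Seq, 2 with variant 2, 1 with variant 1 (ODC1) and 0 with variant 4. Shares over all genes were not computed without that cell, so these counts have no background of their own.

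**Figure D3:**
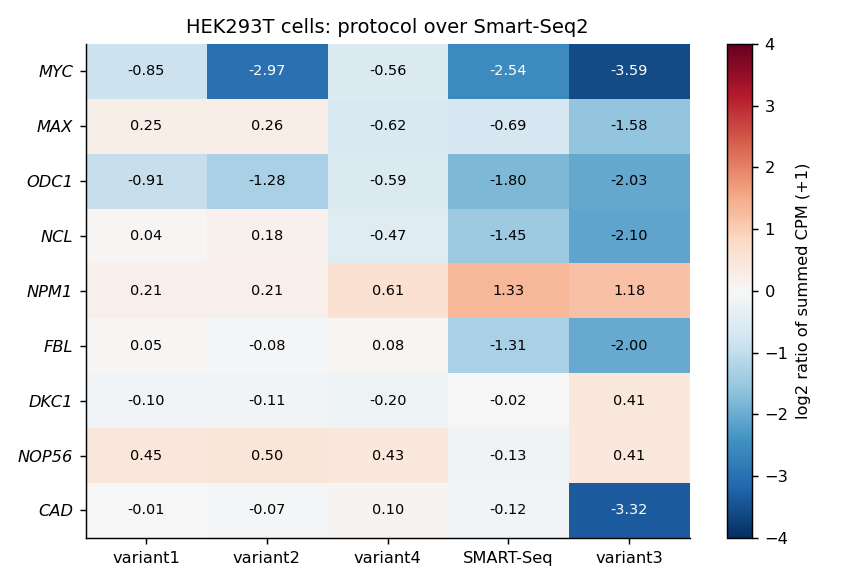
Log2 ratio of summed CPM (1 CPM added) of the 9 genes with reads, for each protocol (columns) over Smart-Seq2 in single HEK293T cells, as a colour scale with the values printed. MYC is lowest with variant 3 (-3.59), variant 2 (-2.97) and SMART-Seq (-2.54), and NPM1 is higher with variant 3 (1.18) and SMART-Seq (1.33).

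Across the 13 human groups, summed MYC fell in the order Smart-Seq2 cells (539.1 CPM), variant 4 (366.5), variant 1 (298.3), 1 ng of RNA (284.9), 100 pg (276.1), 10 pg (236.9), 10 cells (224.6), DG-75 (150.9), 50 cells (124.3), SMART-Seq (92.1), 100 cells (80.1), variant 2 (67.8) and variant 3 (43.8). The library ranges of every pair of neighbours in that order overlapped. NCL was highest in 10 pg (3138 CPM), 100 pg (2494) and 1 ng of RNA (2421) and lowest in SMART-Seq (674.3), DG-75 (558.3) and variant 3 (426.5), and its neighbours overlapped except 50 and 100 cells, which were not tested against each other. The summed level was lowest in DG-75 for ODC1 (93.8 CPM), NPM1, DKC1 and NOP56, and lowest in variant 3 for MAX (24.1 CPM), FBL (70.2) and CAD (11.2). Without DG-75 cell 7 ODC1 was at 111.7 CPM there, above variant 3 (102.6 CPM). MAX was highest in 10 pg of HEK293T RNA (174.9 CPM), followed by DG-75 (168.8 CPM, and 181.7 CPM without cell 7). Both libraries of 10 pg (165.8 and 182.2 CPM) lay within the DG-75 range of MAX.

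**Figure D4:**
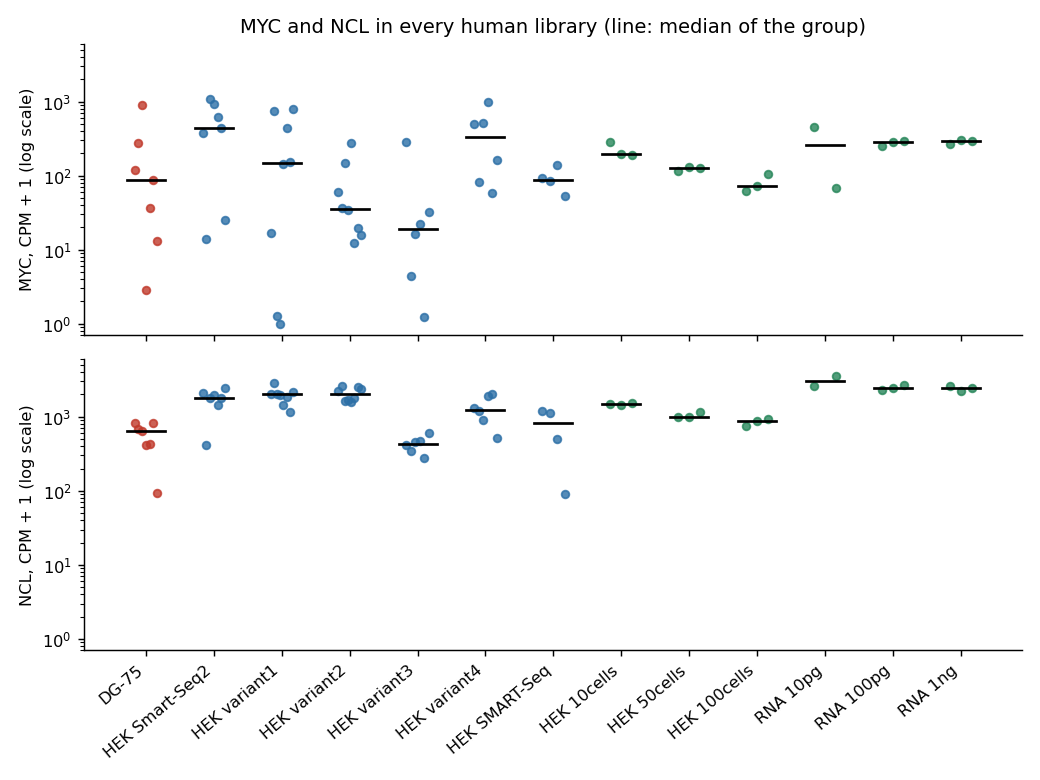
CPM + 1 on log axes of MYC (upper) and NCL (lower) in each of the 63 human libraries by group, with a line at each group's median. MYC of single cells spans from 0 to 1085 CPM, while the 3 libraries of 1 ng of RNA lie between 265.9 and 303.6 CPM.

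Among the genes whose level over the 13 groups was most like that of MYC, by Pearson correlation of log2(CPM + 1) of the sums among 10282 genes, were SORD (0.884), IL27RA (0.88), SDC1 (0.865) and LRSAM1 (0.862). All groups but DG-75 share a cell line and several share a protocol, so these values are a description. The same ranking was made for MYCN, led by DLST (0.754), but there it rests on a few reads in 5 libraries.

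Lysed cells and purified RNA of HEK293T were compared at 2 inputs to read the same genes under another source of RNA. In 100 cells MYC, CAD, MAX, NCL, DKC1 and FBL were lower than in 1 ng of RNA and NPM1 was higher, while ODC1 and NOP56 did not pass. In edgeR's quasi-likelihood test 6 of 9 members passed as lower, against 33.1% of 11487 genes, and 1 as higher, against 29.7%. Groups did not overlap for 7 members as lower (41.8% of genes) and 1 as higher (24.0%). The replicates are numbered libraries with no culture named, so these p-values set a difference against a spread that may be technical only. In pools, less RNA of a gene per cell and fewer cells with it cannot be told apart.

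MYC was at 60.9, 70.9 and 103.2 CPM in 100 cells and 265.9, 303.6 and 290.5 CPM in 1 ng of RNA. All 3 pools lay below all 3 RNA libraries, and the log2 fold change was -1.64 ± 0.19 (SE; edgeR adjusted p = 6.93e-07). CAD was at 24.2, 20.6 and 32.4 CPM in cells and 127.1, 122.7 and 135.6 CPM in RNA, also without overlap (-2.08 ± 0.20, edgeR adjusted p = 7.92e-08). MAX fell by 1.38 on the log2 scale (edgeR adjusted p = 4.98e-06), from 109.3 to 128.2 CPM in RNA to 34.4 to 40.9 CPM in cells.

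NCL was at 756.3, 862.1 and 938 CPM in 100 cells and 2562, 2243 and 2416 CPM in RNA (-1.27 ± 0.15, edgeR adjusted p = 6.11e-07). NPM1 stood the other way round, at 917.6, 930.5 and 914.6 CPM in cells and 567.7, 452.4 and 457.9 CPM in RNA (1.13 ± 0.16, edgeR adjusted p = 5.64e-06). Groups of both genes did not overlap. With each library's trend over transcript length and GC content removed, NPM1 was at -0.04 (edgeR adjusted p = 0.782) and its difference no longer passed.

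DKC1 (-0.66 ± 0.16, edgeR adjusted p = 0.00157) and FBL (-0.54 ± 0.17, edgeR adjusted p = 0.0092) also passed as lower in 100 cells. FBL missed the threshold without HEK_100cells replicate 1 (-0.42, edgeR adjusted p = 0.0991) or replicate 2 (-0.48, edgeR adjusted p = 0.0505) and in a fit of all 6 input groups (-0.54, edgeR adjusted p = 0.0678). ODC1 was at 321.0, 321.4 and 285.4 CPM in cells and 285.3, 403.6 and 362.6 CPM in RNA, with overlapping groups (0.06 ± 0.17, edgeR adjusted p = 0.777). NOP56 was at 298.4, 309.8 and 411.5 CPM in cells and 489.8, 417.9 and 481.3 CPM in RNA (-0.22 ± 0.16, edgeR adjusted p = 0.253). With the length and GC trend removed NOP56 passed as higher (0.54, edgeR adjusted p = 0.00058). Scaling by library totals shifted the median over all genes by -0.23 and gave 1 member higher and 7 lower, with NOP56 at -0.45 (2501 genes higher and 4535 lower over the table). HEK_100cells replicates 1 and 2 differed by little more than counting error (mean chi-square per gene 1.81, against 20.8 and 20.5 with replicate 3), so they may not be independent.

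In 10 cells against 100 pg of RNA, which share no library with the comparison above, ODC1, CAD, MAX, NCL, FBL and DKC1 were lower in cells and no member was higher. In edgeR 6 of 9 members passed as lower, against 11.5% of 11671 genes, and 0 as higher, against 7.81%. Groups did not overlap for 7 members as lower (18.7% of genes) and 0 as higher (19.1%). ODC1 was at 171.9, 147.5 and 175.7 CPM in 10 cells and 290.0, 342.2 and 341.7 CPM in RNA (-0.997 ± 0.136, edgeR adjusted p = 0.000298), with no overlap. NCL was at 1493, 1423 and 1542 CPM in cells and 2321, 2432 and 2717 CPM in RNA (-0.77 ± 0.09, edgeR adjusted p = 7.88e-05).

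MYC was at 284.4, 193.0 and 191.8 CPM in 10 cells and 254.3, 280.5 and 293.6 CPM in 100 pg of RNA. The groups overlapped, and the difference did not pass (-0.33 ± 0.16, edgeR adjusted p = 0.181). NPM1 (-0.03, edgeR adjusted p = 0.875) and NOP56 (-0.32, edgeR adjusted p = 0.0741) did not pass either. MAX (-0.95, edgeR adjusted p = 0.00389), CAD (-1.11, edgeR adjusted p = 0.00797) and FBL (-0.55, edgeR adjusted p = 0.00914) passed. DKC1 (-0.37, edgeR adjusted p = 0.0492) lost its call without any 1 of the 6 libraries (edgeR adjusted p from 0.0554 to 0.163), and FBL without HEK_10cells replicate 1 (-0.48) or 2 (-0.51) and in a fit of all 6 input groups (-0.56, edgeR adjusted p = 0.125). With the length and GC trend removed CAD was at -0.38 (edgeR adjusted p = 0.323) and NPM1 passed as lower (-0.57, edgeR adjusted p = 0.00549).

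The lists gave mixed directions in these libraries, and their counts stand beside 33.1% of all genes lower and 29.7% higher in 100 cells against 1 ng. In 100 cells against 1 ng of RNA, 14 of 26 nucleolar assembly genes passed as lower in edgeR, led by PES1 (-4.12) and TCOF1 (-2.56), and 6 as higher, led by NOP16 (1.06) and DDX18 (1.04). Of 12 small nucleolar ribonucleoprotein genes 4 were lower, led by GAR1 (-2.11) and NOLC1 (-1.05), and 4 higher, led by NOP10 (2.07) and NHP2 (1.05). Of 11 RNA polymerase I genes 5 were lower, led by the activator UBTF (-2.35) and the largest subunit POLR1A (-2.57), and 2 higher, POLR1C (0.55) and POLR1D (0.57). Of 9 polyamine genes 4 were higher, led by the antizyme OAZ1 (1.56) and SAT1 (1.68), and 2 lower, OAZ2 (-0.64) and SMOX (-1.02). Of 14 nucleotide synthesis genes 5 were lower, led by PFAS (-2.04) and IMPDH1 (-1.88), and 2 higher, ADSL (0.78) and UMPS (0.56). Of 10 MYC network genes 5 were lower, led by MLXIP (-1.51) and MXD1 (-1.82), and MXI1 was higher (1.31).

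In 10 cells against 100 pg, where 11.5% of all genes were lower and 7.81% higher, the counts that passed in edgeR were 12 lower and 3 higher of 25 nucleolar assembly genes, with PES1 (-1.73) and NPM3 (-2.17) as lower and NOP16 (0.61) and GNL3 (0.37) as higher. They were 2 lower, GAR1 (-1.73) and NOLC1 (-0.52), and 1 higher, NOP10 (1.14), of 12 small nucleolar ribonucleoprotein genes. RNA polymerase I genes had 4 lower of 11, led by POLR1A (-1.82) and TAF1C (-2.02), and 0 higher. Nucleotide synthesis genes had 3 lower of 14, led by PFAS (-1.82) and PAICS (-0.66), and 0 higher. Polyamine genes had 2 higher of 8, OAZ1 (0.86) and SAT1 (0.87), and the MYC network had MLX higher (0.61) of 10, both with 0 lower.

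Whether the difference between cells and RNA itself changed with input was tested by an interaction, the log2 ratio at the higher input minus that at the lower. In edgeR 3 of 9 members passed as lower, against 10.7% of 12192 genes, and 2 as higher, against 7.23%. MYC had an interaction of -1.30 ± 0.27 (edgeR adjusted p = 0.00201), ODC1 of 1.06 ± 0.21 (edgeR adjusted p = 0.0016) and NPM1 of 1.17 ± 0.18 (edgeR adjusted p = 0.000286). The length and GC trend, whose removal changed the call of NPM1 at each input, was not removed for the interaction. NCL (-0.50, edgeR adjusted p = 0.03) and CAD (-0.96, edgeR adjusted p = 0.0473) lay near the threshold. NCL lost its call without RNA_1ng replicate 1 or 3, RNA_100pg replicate 1 or 3, HEK_100cells replicate 1 or 2 or HEK_10cells replicate 1 or 3 (-0.51 to -0.38). CAD lost it without RNA_1ng replicate 1, 2 or 3, RNA_100pg replicate 1 or 3, HEK_100cells replicate 1 or 2 or HEK_10cells replicate 2 or 3 (-1.01 to -0.75). Both also missed the threshold with DESeq2 size factors in edgeR (edgeR adjusted p = 0.0557 for NCL and 0.0622 for CAD). Scaling by totals shifted the median over all genes by -0.26, with 2 members higher and 4 lower, and with 440 genes higher and 1987 lower over the table (882 and 1306 with TMM).

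Between pools, 100 cells had lower MYC, NCL and CAD and higher ODC1 and NPM1 than 10 cells. In edgeR 3 of 9 members passed as lower, against 17.4% of 11514 genes, and 2 as higher, against 13.6%; the 100-cell and 10-cell libraries are those of the comparisons above. Groups did not overlap for 5 members as lower (35.4% of genes) and 2 as higher (11.5%). The log2 fold change was -1.25 ± 0.22 for MYC (edgeR adjusted p = 0.000739), 1.17 ± 0.16 for ODC1 (edgeR adjusted p = 0.000152) and 1.03 ± 0.13 for NPM1 (edgeR adjusted p = 1e-04). The pools of 50 cells lay between them for MYC (116.3, 131.5 and 125.1 CPM), ODC1 (264.0, 265.0 and 244.2 CPM) and NPM1 (732.7, 712.7 and 776.9 CPM), with no overlap with either. NCL (-0.54, edgeR adjusted p = 0.00541) passed, and MYC missed the threshold in a fit of all 6 input groups (-1.24, edgeR adjusted p = 0.0737). CAD (-0.81, edgeR adjusted p = 0.0276) lost its call without HEK_100cells replicate 1 or 2 or HEK_10cells replicate 2 or 3 (-0.77 to -0.62), in a fit of all 6 input groups (-0.80, edgeR adjusted p = 0.112) and with the length and GC trend removed (-0.10, edgeR adjusted p = 0.751). Scaling by totals shifted the median over all genes by -0.26 and gave 2 members higher and 4 lower (851 genes higher and 3119 lower over the table).

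Dilution of the RNA from 1 ng to 100 pg left no member past the threshold. In edgeR 0 of 9 members passed, against 0.0262% of 11469 genes lower and 0.0% higher, 888 genes but 0 members had an unadjusted p under 0.05, and DESeq2 and limma called 34 and 3 genes and 0 members. The log2 fold changes of members were between -0.15 (NPM1) and 0.15 (CAD), each with overlapping groups, where 7.66% of genes were higher and 7.31% lower without overlap.

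At 10 pg, with 2 libraries, ODC1 was the member that passed, at 200.5 and 170.1 CPM against 285.3, 403.6 and 362.6 CPM in 1 ng (0.96 ± 0.20 for 1 ng over 10 pg, edgeR adjusted p = 0.0317). The backgrounds were 16.9% higher and 1.54% lower of 11087 genes. Groups did not overlap for ODC1, NPM1 and DKC1 as higher (34.7% of genes) and for MAX, NCL and FBL as lower (11.5%). ODC1 missed the threshold without any 1 of the 3 libraries of 1 ng (0.85 to 1.08, edgeR adjusted p from 0.0658 to 0.172). MYC was at 446.8 CPM in 1 library of 10 pg and 66.9 CPM in the other, on either side of all 1 ng libraries. Its log2 fold change was 0.20 ± 0.77 with both (edgeR adjusted p = 0.933), 2.17 without RNA_10pg replicate 1 and -0.58 without replicate 2. With 1 library of 10 pg left the spread comes from the 1 ng libraries alone, so no p is given for these values. The 1 ng libraries are shared by 3 of the comparisons.

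**Figure D5:**
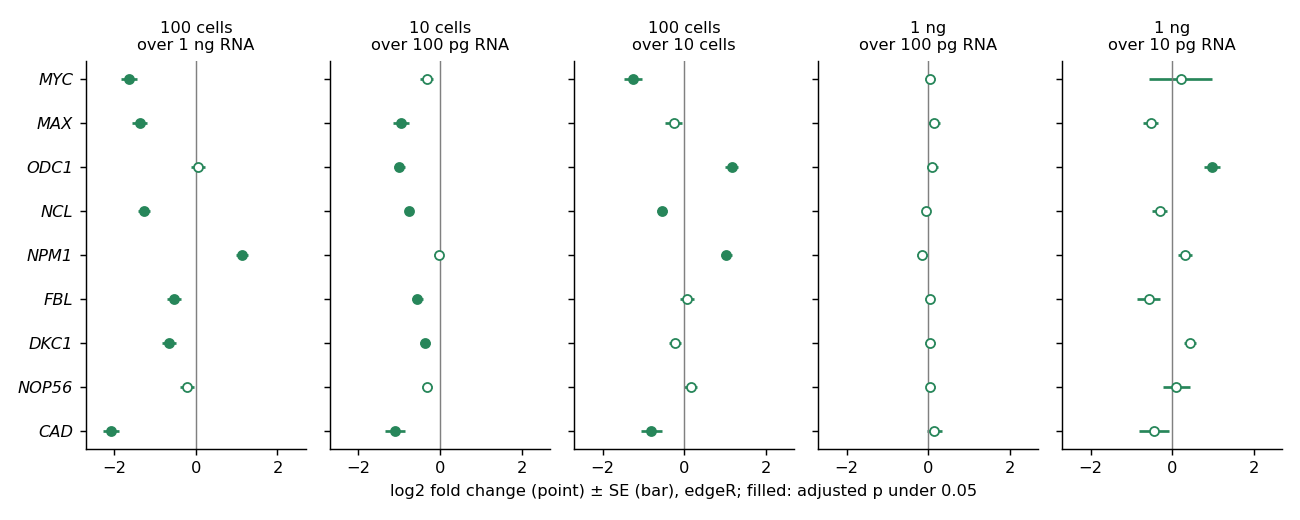
Log2 fold change (point) with its SE (bar) from edgeR for 9 genes in the 5 comparisons of inputs, with filled points for an adjusted p under 0.05. MYC lies at -1.64 for 100 cells over 1 ng and at -0.33 for 10 cells over 100 pg, NPM1 at 1.13 and -0.03, and ODC1 at 0.06 and -0.997.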

How the data were processed

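Each of the 63 human libraries has 1 deposited table with reads and RPKM for 24249 gene entries. Per the file headers the tables hold read counts, and the deposited counts were whole numbers. The RPKM values were made by the authors from these reads, per the file headers, with a gene length that no label states. STAR (version not given) and hg19 (GRCh37) are named in the submitters' processing notes, and the genes are RefSeq genes per the file headers. How reads were counted, with which strand setting, and what was done with reads of several matches is not given in the sources used here. The 13 mouse libraries were not analysed here.

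Entries of the same symbol were summed. Members were found by symbol, and members, gene lists, markers and tests were chosen with earlier results of these data known. Input libraries were tested with edgeR 4.0.16 in R 4.3.3 (quasi-likelihood F test, TMM, filterByExpr, two-sided) on the whole table, fitting the groups compared, with Benjamini-Hochberg adjustment over all genes tested and a threshold of 0.05. MYCN did not pass the filter in any comparison, and the other 9 members did in each. The script was tested on simulated counts with known changes. DESeq2 1.42.0, limma 3.58.1 on log2(RPKM + 1), other scalings, filters and covariates, a fit of all 6 input groups and leaving out each library were alternatives. The length and GC trend was fitted on annotated transcripts, found for 98.89% of expressed symbols.

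Single-cell groups count as 1 sample each. Genes with at least 20 CPM in either group were compared, a gene past 2-fold is called, and medians of lists are over genes compared. From each list the text names the 2 genes furthest in each direction past 2-fold, or, for edgeR calls, the 2 of lowest adjusted p on either side, and any others were named after their values were seen. Of the 5 genes most like MYC 1 is not reported here. Library depth was 1.88 to 27.9 M gene reads. Reads were amplified by PCR without molecular identifiers, so intervals cover counting error only. Coordinates and sequences come from RefSeq (GRCh38.p14) and were not joined to hg19. Figures were drawn with matplotlib 3.10.9.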

Additional observations from a re-analysis of the deposited data

Results flagged for a closer look

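Among 63 pairs of gene and group of 4 to 8 single cells, 12 had a lowest or highest cell far from the others. Chance flags about 1 in 20 of independent pairs, but these pairs share cells and are not independent. In all flagged pairs it was the lowest cell. HEK293T cell 2 of Smart-Seq2 was the lowest in 6 of them, with ODC1 at 27.1 CPM, NCL at 418 CPM, NPM1 at 95.4 CPM, FBL at 76.8 CPM, DKC1 at 0.378 CPM and NOP56 at 0.189 CPM. DG-75 cell 7 was the lowest in 2, with NCL at 91.2 CPM and NPM1 at 1.35 CPM. The others were MAX at 0.375 CPM in variant 2 cell 3, CAD at 36.9 CPM in variant 2 cell 7, NOP56 at 114 CPM in variant 3 cell 5 and NOP56 at 34.6 CPM in SMART-Seq cell 3.

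The difference between cells and purified RNA differed between inputs for 5 genes by the interaction in edgeR. The length and GC trend was not removed in that test. The log2 interaction was -1.30 for MYC (edgeR adjusted p = 0.00201), 1.06 for ODC1 (edgeR adjusted p = 0.0016), -0.50 for NCL (edgeR adjusted p = 0.03), 1.17 for NPM1 (edgeR adjusted p = 0.000286) and -0.96 for CAD (edgeR adjusted p = 0.0473).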

How the results depend on the processing

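Of the counts of members, 83 of 94 recomputed under other settings and 103 of 122 without 1 library stayed close to the reported total. That total joins members higher and lower, so the same genes and sides need not be kept. Of the log2 ratios of members in single cells, 542 moved by more than counting error without 1 cell and 187 did not. Under other settings 188 moved and 145 did not. Of the edgeR log2 fold changes of members, 27 lost their call under other settings, 16 gained one and 14 changed sign. There 333 kept both sign and call. Without 1 library 8 changed sign. The cause of the changes was not tested. Variant 1 against Smart-Seq2 had 2 members past 2-fold with the median over cells in place of 0, and 0 to 2 without 1 cell. Variant 4 had 0 to 1 without 1 cell. For 100 over 10 cells the count was 3 with all 6 input groups in 1 fit. For 1 ng over 10 pg it was 3 with DESeq2 and 3 with all 6 groups, and 0 to 5 without 1 library. The interaction had 3 with DESeq2 size factors and 3 to 5 without 1 library.

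Correlations of deviations between same-numbered libraries were -0.0751 to 0.0452 in 4 of the 5 comparisons. For 100 over 10 cells they were 0.0745, 0.227 and 0.374, not all over 0.1, so the numbers were not taken as pairs there either. All 6 libraries correlated best with their own number for 100 cells over 1 ng and 4 of 6 for 100 over 10 cells, a hint from the data and not the design. With the replicate number as a block 7 members passed for 100 cells over 1 ng, 5 for 10 cells over 100 pg, 5 for 100 over 10 cells, 0 for 1 ng over 100 pg, 0 for 1 ng over 10 pg (also 0 with the length and GC trend removed) and 3 for the interaction. On the same libraries with no block, an alternative chosen after seeing the data, 3 passed for 10 cells over 100 pg, 0 for 1 ng over 10 pg and 3 for the interaction.

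Values that changed sign had no call on either side, except NPM1 and NOP56 for 100 cells over 1 ng with the length and GC trend removed and MYC for 1 ng over 10 pg with 1 library of 10 pg left. For 100 cells over 1 ng ODC1 was at -0.18 with library totals, -0.17 with limma and -0.0572 to 0.151 without 1 library. NPM1 was at -0.0368 and NOP56 at 0.538 with the length and GC trend removed, and at -0.0356 and 0.544 with the replicate block added. For 10 cells over 100 pg NPM1 was at 0.0363 with the replicate block, 0.0272 on the same libraries with no block and -0.131 to 0.0527 without 1 library. For 100 over 10 cells FBL was at -0.18 with totals, -0.19 with limma, -0.0537 with the trend removed, -0.0559 with the block added and -0.0533 to 0.186 without 1 library, and NOP56 was at -0.0942 and -0.108 with totals and limma. For 1 ng over 10 pg the ranges without 1 library were -0.58 to 2.17 for MYC, -0.31 to 0.72 for NOP56 and -0.88 to 0.25 for CAD.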
